A study of Mus musculus with 4 samples.

Results

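The 10 long noncoding RNA names followed here on whole-genome expression arrays of mouse lumbar spinal cord are Meg3, Malat1, Neat1, Miat, Gas5, H19, Rian, Mirg, Snhg11 and Snhg1. Members were the genes with a probe that carries one of these names in the scanner files, which gave 8 genes of 34787 gene and transcript names, read by 20 of 55681 probes. No probe carried the name Miat or Rian, so those 2 genes were not analysed here. The samples were 2 mice with a tightly tied L5 spinal nerve (spinal nerve ligation, SNL) and 2 mice whose nerve was exposed and left untied (sham). All 4 were male ICR mice, an outbred stock, aged 8 weeks, and none is labelled with a genetic change. Cord of the L4 to L5 segments was taken on day 10 after surgery, as whole tissue, and each mouse gave 1 RNA sample and 1 array.

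Long noncoding RNAs act as RNA and are not translated. Neat1 and Malat1 lie next to each other in the genome and stay in the nucleus. Neat1 is the scaffold of paraspeckles, and its long form, which shares its start with a short form, is the one that builds them. Malat1 gathers in nuclear speckles, where splicing factors are stored. Gas5, Snhg1 and Snhg11 are host genes: their introns carry small nucleolar RNAs (snoRNAs), which guide the modification of ribosomal and other RNA, and the spliced Gas5 and Snhg1 exons are removed by nonsense-mediated decay. Gas5 accumulates in growth-arrested cells and its RNA can bind the glucocorticoid receptor. Meg3, Rian and Mirg are expressed from the maternal chromosome of the Dlk1-Dio3 imprinted locus and carry small RNAs. H19, also maternally expressed, lies beside Igf2, is abundant in the embryo and is kept in adult skeletal muscle. In the RefSeq annotation of GRCm38.p6 the span of Mirg holds 10 microRNA hairpins and that of H19 holds 1, Mir675, while Gas5 and Snhg1 each hold 8 snoRNA genes.

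The probes below are those on which the results turn. They are 60 bases long, are given 5′ to 3′ as the scanner files list them, and their positions refer to mm9 as in the files. The exon or intron of each position was not analysed here. First come the single Snhg1 probe, whose groups were furthest apart among the members relative to its error, and the Malat1 probe. The second probe at the Malat1 position, named NEAT2, an older name of Malat1, has the same 60 letters.
Snhg1 A_55_P2117710, chr19:8798913-8798972, + strand: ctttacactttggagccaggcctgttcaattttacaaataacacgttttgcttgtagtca
Malat1 A_55_P2021187, chr19:5795713-5795772, - strand: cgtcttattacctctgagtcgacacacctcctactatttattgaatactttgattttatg
For Neat1, the named probe and its 2 overlapping neighbours named NEAT1 are followed by 3 probes further along the same strand that moved the other way. Capitals mark a run of 30 bases shared with an overlapping probe. In the named probe the shared run is the one with A_30_P01020135, and its other 30 bases are shared with A_30_P01021631.
Neat1 A_51_P234692, chr19:5842564-5842623, - strand: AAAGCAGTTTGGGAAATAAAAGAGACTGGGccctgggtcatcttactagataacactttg
NEAT1 A_30_P01020135, chr19:5842594-5842653, - strand: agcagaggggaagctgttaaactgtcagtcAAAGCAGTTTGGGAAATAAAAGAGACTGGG
NEAT1 A_30_P01021631, chr19:5842534-5842593, - strand: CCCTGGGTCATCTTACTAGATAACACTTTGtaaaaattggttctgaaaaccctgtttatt
downstream A_30_P01029006, chr19:5834857-5834916, - strand: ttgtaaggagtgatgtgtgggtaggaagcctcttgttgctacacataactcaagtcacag
downstream A_30_P01025818, chr19:5834603-5834662, - strand: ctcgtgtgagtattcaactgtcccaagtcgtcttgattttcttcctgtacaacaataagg
downstream A_30_P01019037, chr19:5834543-5834602, - strand: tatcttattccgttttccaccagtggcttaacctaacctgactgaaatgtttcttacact
Of the 7 H19 probes, 4 are shown. The first and second followed one pattern over the 4 mice. The third abuts the second and, like the fourth, did not follow it.
H19 A_55_P1961127, chr7:149761492-149761551, - strand: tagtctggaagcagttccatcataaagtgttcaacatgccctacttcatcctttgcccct
H19 A_30_P01028827, chr7:149762113-149762172, - strand: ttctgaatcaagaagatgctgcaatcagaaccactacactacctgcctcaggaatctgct
H19 A_30_P01026972, chr7:149762173-149762232, - strand: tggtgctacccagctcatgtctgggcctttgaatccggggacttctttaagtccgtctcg
H19 A_55_P1961125, chr7:149762417-149762476, - strand: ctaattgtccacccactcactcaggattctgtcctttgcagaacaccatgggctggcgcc
Last, from the stretch between Meg3 and Mirg, come the only probe there that passed the test, the probe that abuts it, and a probe between the Mirg probes.
A_30_P01025558, chr12:110850400-110850459, + strand: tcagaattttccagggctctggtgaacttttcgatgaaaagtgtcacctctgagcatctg
A_30_P01018006, chr12:110850340-110850399, + strand: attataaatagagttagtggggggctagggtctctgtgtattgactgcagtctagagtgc
A_30_P01019435, chr12:110986444-110986503, + strand: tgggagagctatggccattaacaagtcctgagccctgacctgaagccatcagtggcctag

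The level of a probe is the log2 signal relative to the 75th percentile of its array, and a change is SNL minus sham on that scale. Levels of different probes are not compared with each other, since probes differ in how they bind. Spots well above background made up 74.9% and 78.1% on the SNL arrays, against 82.1% and 81.9% on the sham arrays, and no spot was saturated. Across probes, which are not independent replicates, arrays correlated at r = 0.987 within SNL, 0.991 within sham and 0.982 to 0.984 between groups. All 4 arrays shared 1 slide and 1 scan. All 16 neuron, 14 astrocyte, 14 oligodendrocyte and 9 lumbar Hox markers were well above background on all 4 arrays. So were all 12 meningeal and fibroblast markers and 9 of 10 Schwann cell markers. Most spots of every array cleared background, so these counts cannot show whether other tissue adhered to the cord. Of the markers of microglia and macrophages, at unadjusted p under 0.05, 15 of 19 were higher and none lower. Of the motor neuron markers 10 of 17 were lower and none higher. Over all genes 6.35% were higher and 5.18% lower at that p. At adjusted p under 0.05, 0 of the microglia and macrophage markers passed. In the motor neuron list 2 genes passed. Chodl changed by -3.84 (limma, adjusted p = 0.0394). Mnx1, whose probe did not clear background on the SNL arrays, was at least 15.6-fold lower, taking for each SNL array the lowest signal well above background (limma, adjusted p = 0.0429). In whole tissue, fewer cells of a type and less RNA per cell cannot be told apart. The RNA of SNL mouse 1 stood apart for skeletal muscle genes. Changes without that mouse are given for Malat1 and for several H19 probes. For some other results only the range with each mouse left out in turn is given.

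None of the 20 member probes passed in limma at adjusted p under 0.05. Over all 44721 probes tested, 0.141% were called higher and 0.0112% lower. At unadjusted p under 0.05, 1 member probe was higher and 0 lower, against 6.22% and 5.97% of all probes. Neither direction held a change of at least 2-fold at that p, which 1.8% of all probes reached upward and 0.767% downward. SNL and sham values did not overlap for 2 of the 20 probes, both higher in SNL, and 0 were lower without overlap. Over all probes the shares without overlap were 23.6% higher and 22.5% lower. The member shares lie at or below these backgrounds. Above 0 lay 13 of the 20 changes, against 52.5% of all probes. The median change was 0.06 over the member probes and 0.01 over all probes, and 18 of the 20 lay within 0.5 of 0. All 20 probes passed the filter on dim signal, 18 of them on all 4 arrays.

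Snhg1, the host of 8 snoRNA genes, was the member furthest from 0 relative to its error. Its level was -0.78 and -0.93 in the SNL mice, against -1.60 and -1.68 in the sham mice. Both SNL mice lay above both sham mice, and the mice of a group were 0.15 apart in SNL and 0.08 apart in sham. The change was 0.78 ± 0.11 (SE, n = 2 per group), or 1.72-fold, and did not pass over all probes (limma, adjusted p = 0.179). With a variance trend and robust estimation it passed, at adjusted p = 0.0463. Leaving out each mouse in turn gave 0.71 to 0.86, with adjusted p from 0.205 to 0.643.

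The other host genes among the members gave smaller values. For Gas5, the probe A_66_P134809 read 2.43 and 2.20 in SNL mice and 2.17 and 2.27 in sham mice. The Gas5 probe A_51_P130544 read -1.58 and -1.65 in SNL mice and -1.44 and -1.80 in sham mice. The third, A_55_P2178378, read -2.84 and -3.39 in SNL mice and -2.85 and -3.65 in sham mice. SNL and sham values overlapped on all 3, and the changes were 0.10 ± 0.13, 0.0061 ± 0.16 and 0.13 ± 0.37 (SE, n = 2 per group, adjusted p from 0.806 to 0.992). Signs on the Gas5 probes depend on single mice: A_55_P2178378 was at -0.27 without sham replicate 2 and at 0.53 without sham replicate 1. Between the outer Gas5 probes the array carries 2 more probes on the same strand, with changes of 0.30 and -0.15, and 2 on the opposite strand, with 0.17 and 0.19. None of these 4 passed. Genes induced by glucocorticoids were set beside Gas5: 13 of 16 were higher at unadjusted p under 0.05 and none was lower, against 6.35% and 5.18% of all genes. The median change was 0.56 over the 16 and 0.03 over all genes, and 0 of the 16 passed. Of these, Pdk4, which restrains glucose oxidation, was at 1.81 (adjusted p = 0.0655), Cdkn1a, a cell cycle inhibitor gene that is also in the list of p53 targets, at 2.25 (adjusted p = 0.0888) and Zbtb16, a transcription factor, at 1.12 (adjusted p = 0.145).

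Snhg11, a host gene enriched in neurons, had 2 probes. A_51_P267933 read 1.20 and 1.03 in SNL mice, against 0.76 and 0.92 in sham mice. This is the second member probe whose groups did not overlap, with a change of 0.28 ± 0.13 (SE, n = 2 per group, adjusted p = 0.502). A_55_P2047809 read -0.85 and -0.98 in SNL mice and -1.06 and -0.94 in sham mice, which overlap, and its change was 0.08 ± 0.11 (adjusted p = 0.809). Of the 16 neuron markers, a list that holds Meg3 and Snhg11, 1 was higher at unadjusted p under 0.05 and 0 lower, against 6.35% and 5.18% of all genes. The higher one was Snap25, a synaptic vesicle fusion protein, at 0.43 (limma, adjusted p = 0.358).

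Other snoRNA host genes were counted by the probe with the highest mean. Of 26 listed, 21 were tested, 3 of them members. Of these 5 were higher at unadjusted p under 0.05 and none was lower, where 6.35% of all genes were higher and 5.18% lower. In limma 0 passed, against 0.147% of all genes higher and 0.0102% lower. The median change was 0.19 over the hosts and 0.03 over all genes, and 18 of 21 lay above 0. Without the 3 members, 4 of 18 were higher at that p and the median was 0.17. Snhg5 read 0.0054 and 0.03 in SNL mice, against -0.72 and -0.89 in sham mice, a change of 0.82 ± 0.11 (adjusted p = 0.173). Zfas1 read 1.37 and 1.42 in SNL mice and 0.80 and 0.91 in sham mice, a change of 0.54 ± 0.10 (adjusted p = 0.238). Both passed with a variance trend and robust estimation, at adjusted p = 0.0260 and 0.0369. Snhg16 was at 0.46 and Snhg12 at 0.33 (adjusted p = 0.400 and 0.401); these 2 were chosen after their values were seen. A second Snhg16 probe, A_55_P2126444, was at -0.23 (adjusted p = 0.901), and its groups overlapped. The count of 5 became 10 with a variance trend and robust estimation, and was 2 to 4 when each mouse was left out in turn: 2 without sham replicate 1, 3 without sham replicate 2 and 3 without SNL replicate 1. Ribosomal protein genes, which like several host genes begin with a terminal oligopyrimidine tract, were added after values were seen. There were 83, of which 81 are in no other list. Above 0 lay 78 of the 83, against 52.5% of all probes, and their median change was 0.17, against 0.03 over all genes. An unadjusted p under 0.05 was reached upward by 3 of them (3.61%) and downward by 0. Both shares lie below the 6.35% and 5.18% of all genes. Of 10 nonsense-mediated decay factors 1, the kinase gene Smg1, was higher at that p, at 0.42 (adjusted p = 0.321), and 0 were lower.

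**Figure D1:**
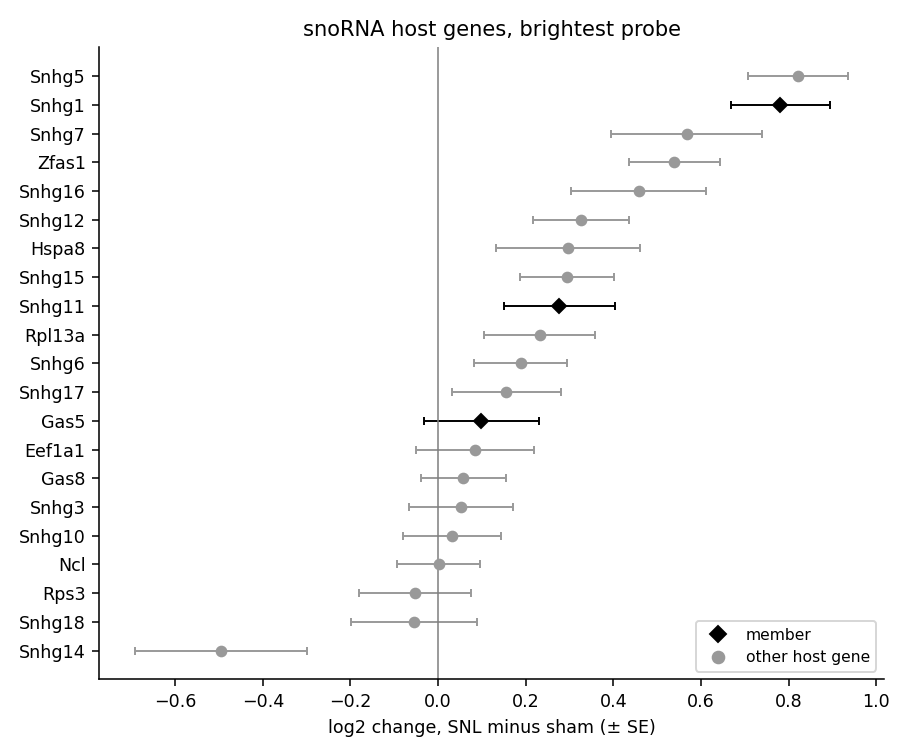
Points give the log2 change, SNL minus sham, of 21 snoRNA host genes by their brightest probe, and bars its SE (2 mice per group, but 1 sham mouse for Snhg7 and Eef1a1, where a spot was an outlier). Snhg5 and Snhg1 lie at 0.82 and 0.78, Snhg11 and Gas5, the other members, at 0.28 and 0.10, and Snhg14 is lowest.

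The Neat1 probe read 1.49 and 1.16 in SNL mice, against 1.21 and 0.94 in sham mice. The groups overlap, and the change was 0.25 ± 0.18 (SE, n = 2 per group, adjusted p = 0.652). The 5 NEAT1 probes nearby, 2 of which share 30 bases with it, were at 0.13 to 0.25 with adjusted p from 0.613 to 0.847, and all 5 overlapped. In RefSeq the gene spans 20773 bases on GRCm38.p6 and has 2 transcripts. A window of that length from the 5′ end of the NEAT1 region on mm9 holds 3 further probes on the same strand, 7390 to 7763 bases past the region. The files do not name these probes Neat1, and whether they read its long form was not tested. They were chosen after their values were seen.

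A_30_P01019037 read -4.33 and -4.64 in SNL mice, against -3.41 and -3.72 in sham mice, a change of -0.92 ± 0.19 (SE, n = 2 per group, adjusted p = 0.254 in limma). A_30_P01025818 read -3.81 and -4.26 in SNL mice and -3.04 and -3.43 in sham mice, a change of -0.80 ± 0.24 (adjusted p = 0.358). A_30_P01029006 read -3.28 and -3.71 in SNL mice and -2.79 and -3.04 in sham mice, a change of -0.58 ± 0.20 (adjusted p = 0.410). Of the 3, the first and second were below unadjusted p of 0.05. On all 3 probes both SNL mice lay below both sham mice, an order found on 22.5% of all probes, and none passed. The 3 lie close together, and A_30_P01019037 and A_30_P01025818 abut, so they are not separate readings. The mean of the 3 downstream probes minus the mean of the 6 probes of the region was -4.92 and -4.99 in SNL mice, against -3.99 and -3.99 in sham mice. Only the difference between the groups has a meaning here: -0.97 on the log2 scale, or 1.95-fold lower in SNL. An exact permutation test of this difference gave p = 0.333, the lowest that 2 against 2 mice allow. Since the probes were picked for the difference, that test cannot decide whether it is real. The difference was -0.88 with normexp background correction and -1.05 with quantile normalization. The downstream probes were at -1.08 to -0.37 when each mouse was left out in turn. On the opposite strand of the NEAT1 region 11 probes were tested, with changes of -0.38 to 0.37, and 0 passed. Of 22 paraspeckle proteins 2 (9.09%) were higher at unadjusted p under 0.05 and 0 lower, where 6.35% of all genes were higher and 5.18% lower. The 2 were the cold-inducible RNA-binding protein gene Rbm3 at 0.63 (adjusted p = 0.244) and the splicing factor gene Hnrnpa1 at 0.36 (adjusted p = 0.352). Nono, a core paraspeckle protein, was at 0.15 (adjusted p = 0.609).

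**Figure D2:**
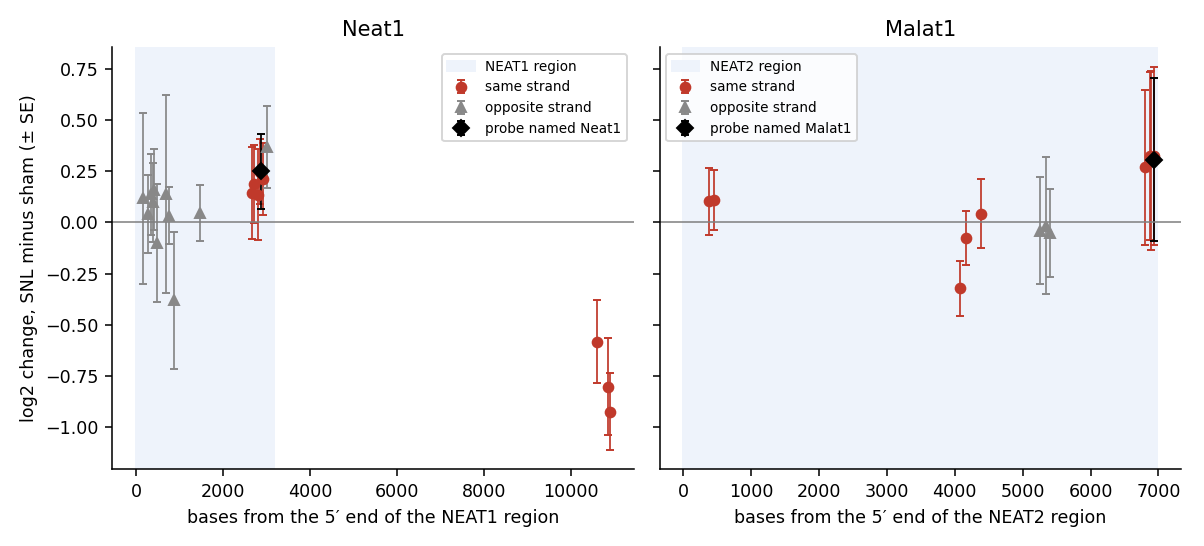
The log2 change, SNL minus sham, with its SE (2 mice per group) is plotted against the distance in bases from the 5′ end of the NEAT1 region (left) and the NEAT2 region (right). Probes on the strand of Neat1 lie at 0.13 to 0.25 within the region and at -0.92 to -0.58 downstream of it, and probes on the strand of Malat1 at 0.27 to 0.32 at the 3′ end and at -0.32 to 0.11 elsewhere.

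The Malat1 probe lies near the 3′ end of the transcript and read -2.69 and -3.70 in SNL mice, against -3.36 and -3.65 in sham mice. SNL mouse 1 was the highest of the 4 and SNL mouse 2 the lowest, and the change was 0.31 ± 0.40 (SE, n = 2 per group, adjusted p = 0.800). Without SNL replicate 1 it was -0.20, and without SNL replicate 2 it was 0.81. The probe of identical sequence read -2.63 and -3.74 in SNL mice and -3.34 and -3.68 in sham mice, so duplicate spots differed by at most 0.06. Over the whole NEAT2 region, 9 of 10 further probes on the same strand were tested, with changes of -0.32 to 0.32, and 0 passed. At the 3′ end all 5 probes, the Malat1 probe and its duplicate among them, lay above 0, at 0.27 to 0.32. They are not all separate readings: besides that duplicate, A_30_P01020325 shares a run of 39 bases with A_30_P01028538. On each of these 5 SNL mouse 1 was above both sham mice, and the groups overlapped. Near the 5′ end, A_30_P01021970 and A_30_P01028215 were at 0.11 and 0.10. In the middle, A_30_P01019829 read -3.03 and -3.18 in SNL mice and -2.68 and -2.89 in sham mice, without overlap, a change of -0.32 ± 0.13 (adjusted p = 0.467). On the opposite strand 3 probes were at -0.05 to -0.02. Of 25 nuclear speckle proteins 0 were higher and 0 lower at unadjusted p under 0.05; the smallest p was that of the splicing factor gene Srsf2, at 0.28 (adjusted p = 0.517).

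Meg3 was read by 3 probes. A_52_P196568 read 1.47 and 1.503 in SNL mice and 1.32 and 1.56 in sham mice. A_55_P2033407 read -2.11 and -2.29 in SNL mice and -2.25 and -2.31 in sham mice, and A_51_P455997 read -0.77 and -1.07 in SNL mice and -0.86 and -0.88 in sham mice. The groups overlapped on each, and the changes were 0.05 ± 0.13, 0.07 ± 0.12 and -0.05 ± 0.15 (SE, n = 2 per group, adjusted p from 0.839 to 0.917). Mirg, which hosts microRNAs, read -2.44 and -2.12 in SNL mice and -2.34 and -2.02 in sham mice on A_55_P2336173, a change of -0.10 ± 0.19 (adjusted p = 0.869). On A_66_P121059 it read -0.17 and 0.08 in SNL mice and -0.08 and 0.00025 in sham mice, a change of -0.0058 ± 0.13 (adjusted p = 0.991). All 5 changes lie within their SE of 0. Of 9 genes listed for the imprinted locus 8 were tested, 0 were higher or lower at unadjusted p under 0.05, and the paternally expressed Notch ligand gene Dlk1 was at 0.29 ± 0.10 (adjusted p = 0.419).

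Between the last Meg3 and the first Mirg probe the array carries 30 probes on the forward strand, the strand of both genes, most of them named by region and not by gene. They were examined after values were seen. Of these, 23 were tested, with a median change of -0.07. At unadjusted p under 0.05, 1 was higher and 2 lower, against 6.22% and 5.97% of all probes. The higher one, A_30_P01025558, read -3.43 and -3.31 in SNL mice, against -9.30 and -9.12 in sham mice, where it was not well above background. Both SNL mice lay far above both sham mice, at least 23.7-fold, taking for each sham array the lowest signal well above background, with a fitted change of 5.84 (limma, adjusted p = 0.0394). With normexp background correction the fitted change was 3.62, below the 4.57 of that bound, so that bound applies only to the values without it. Leaving out any 1 mouse kept 5.75 to 5.93, with adjusted p from 0.0834 to 0.528. The probe that abuts it on the same strand, A_30_P01018006, read -3.34 and -2.95 in SNL mice and -2.71 and -2.86 in sham mice, a change of -0.36 ± 0.18 (adjusted p = 0.526). No other probe of the array shares a run of 25 bases with A_30_P01025558. The 2 lower probes, A_30_P01033029 and A_30_P01019374, were at -1.33 and -1.24 (adjusted p = 0.354 and 0.384), and neither was well above background in an SNL mouse, so their size is not known. Between the Mirg probes, A_30_P01019435 read -0.80 and -0.66 in SNL mice, against -1.498 and -1.68 in sham mice, a change of 0.86 ± 0.12 (adjusted p = 0.181). It passed with a variance trend and robust estimation (adjusted p = 0.0400). The 11 other same-strand probes tested between the Mirg probes were at -0.43 to 0.18, among them A_30_P01023076, which overlaps it by a few bases, at 0.05 ± 0.15.

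**Figure D3:**
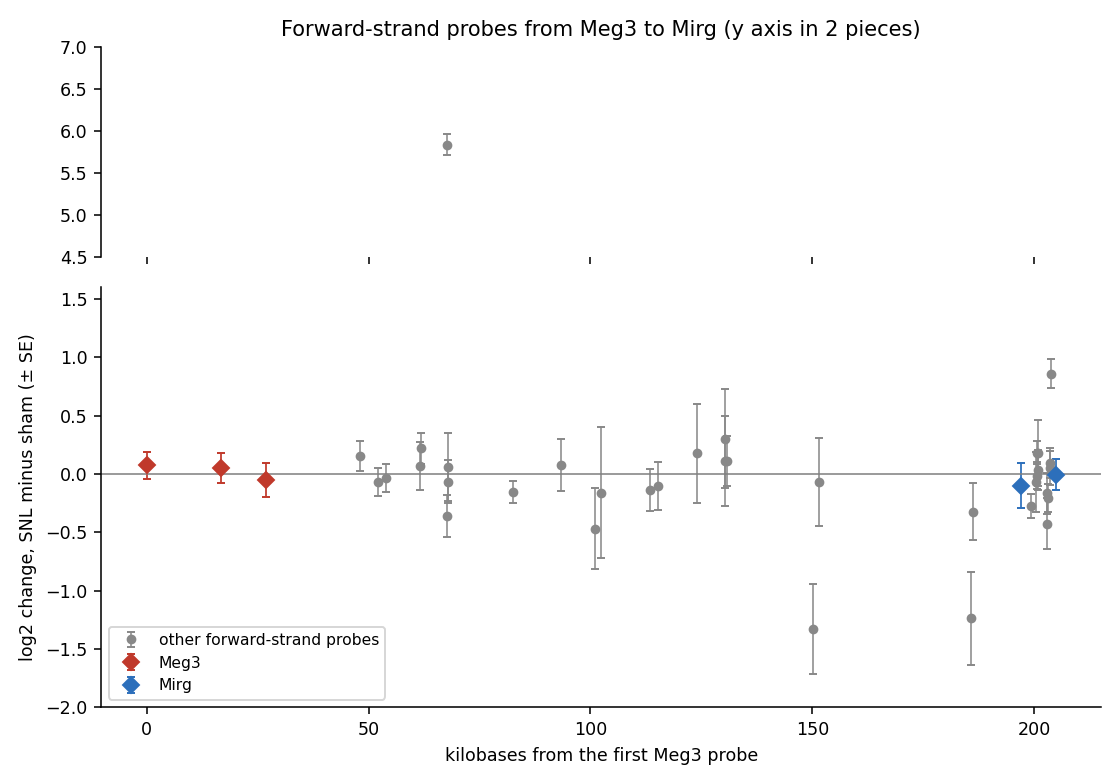
The log2 change, SNL minus sham, with its SE (2 mice per group) is plotted for forward-strand probes against the distance in kilobases from the first Meg3 probe, with the y axis in 2 pieces. The 3 Meg3 and 2 Mirg probes lie between -0.10 and 0.07, while a single probe between them is drawn at its fitted 5.84. That probe was dim in both sham mice, so its difference is given only as at least 4.57. This bound applies only to the values without normexp background correction.

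H19 varied more between the SNL mice than any other member: outside H19 the largest gap between them was 1.01 on the log2 scale, for Malat1. Between the sham mice the largest gap outside H19 was 0.80, for Gas5 A_55_P2178378. On 5 of the 7 H19 probes SNL mouse 1 was the highest of the 4 mice and SNL mouse 2 the lowest, with both sham mice between them. That order was found on 4.23% of all probes. A_55_P1961127 read -0.62 and -3.24 in SNL mice, against -1.64 and -2.04 in sham mice. A_30_P01028827 read -4.22 and -5.68 in SNL mice, against -5.03 and -5.50 in sham mice. Between the SNL mice these 5 probes differed 2.76-fold to 6.12-fold, while the sham mice were 0.27 to 0.47 apart on the log2 scale. The changes were -0.09 to 0.32 with SE of 0.57 to 0.98 (adjusted p from 0.862 to 0.995). Without SNL replicate 1 they were -1.40 to -0.42, and without SNL replicate 2 they were 1.04 to 1.27. These signs follow from the order by which the 5 probes were picked, so they are given as a description.

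The other 2 H19 probes did not follow this order. A_30_P01026972, which abuts one of the 5, read -5.08 and -7.05 in SNL mice, against -3.62 and -5.95 in sham mice, where sham mouse 1 was the highest. Its change was -1.28 ± 1.12 (SE, n = 2 per group, adjusted p = 0.705). A_55_P1961125 read -8.15 and -6.36 in SNL mice, against -7.17 and -6.81 in sham mice, so here SNL mouse 1 was the lowest, and its change was -0.27 ± 0.68 (adjusted p = 0.904). Both probes were well above background in both sham mice but in a single SNL mouse. Between the lowest and the highest change of the 7 H19 probes lay 1.59 on the log2 scale, against 0.13 for the 3 Gas5 probes and 0.13 for the 3 Meg3 probes. Over the 5 H19 probes that were well above background on all arrays it was 0.41.

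Values of other genes are set beside H19. Skeletal muscle markers, a list added after values were seen, were all tested, and 11 of 11 were highest in SNL mouse 1. Their summed signal, relative to each array's 75th percentile, was 43.3 and 3.37 in SNL mice, against 4.09 and 5.97 in sham mice. SNL mouse 2 was the lowest of the 4 for 7 of the 11, and 10 or 11 of them were well above background on every array. Tnnt3, a troponin gene of fast muscle and among the 3 genes before H19 on the chromosome, read 2.62 and -3.17 in SNL mice, against -2.61 and -1.26 in sham mice. Igf2, on the other side of H19, read -2.88 and -3.56 in SNL mice and -2.50 and -4.25 in sham mice, a change of 0.15 ± 0.70 (adjusted p = 0.947). The 12 meningeal and fibroblast markers summed to 31.6 and 21.2 in SNL mice, against 30.04 and 16.7 in sham mice. The 10 Schwann cell markers summed to 36.05 and 26.9 in SNL mice, against 29.6 and 17.3 in sham mice. The part of these cell types in the H19 values was not tested.

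**Figure D4:**
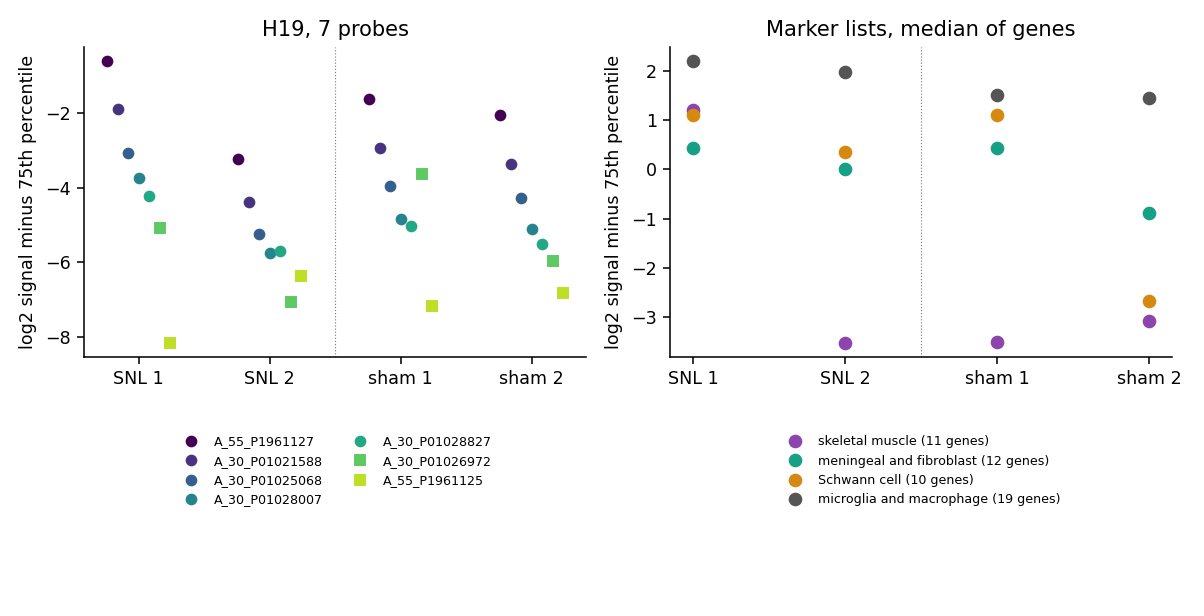
The left panel gives the log2 signal minus the array's 75th percentile of the 7 H19 probes in each mouse, with squares for the 2 probes that do not share the order of the other 5. The right panel gives the median level of 4 marker lists in the same mice, where the skeletal muscle list is at 1.22 in SNL mouse 1 and between -3.52 and -3.09 in the other mice.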

How the data were processed

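Expression was measured in 2 SNL and 2 sham mice on 1-colour arrays of Agilent design 028005. The deposited scanner files hold spot intensity on a linear scale, background-subtracted within each array by Agilent Feature Extraction 10.7.3.1 per the file headers (10.7.1.1 per the submitters' processing notes); for dim spots it replaces the signal by a surrogate. The log2 table deposited by the authors was an alternative. Its columns had medians of -3.48 and -3.33 for SNL and -3.45 and -3.52 for sham, and hold the same scale, the values used here lying at -0.132 to -0.122 from it. Per the labels' protocols each replicate is a separate mouse.

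From the log2 of each processed signal the 75th percentile of its array was subtracted, taken over 59305 spots without controls. Outlier spots were dropped, so that 408 tested probes lack an array, and replicate spots averaged. Probes well above background on at least 2 of 4 arrays were tested with limma 3.58.1 in R 4.3.3 (lmFit and eBayes, 2 residual degrees of freedom, 1.70 from the prior), with Benjamini-Hochberg adjustment over all of them and no covariate. The number of arrays limits the precision: the median SE was 0.14, and an exact permutation test of 2 against 2 cannot go below p = 0.333. The fit was tested on simulated data. Current symbols came from RefSeq (GRCm38.p6) for 26762 probes by accession, 3819 by symbol and 639 by synonym.

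The members and gene lists were chosen with earlier results of these data known. All members were named, and of each other list every gene that passed, or else up to 3 with the smallest p; exceptions are marked. Alternatives were normexp correction (offset 50), quantile normalization, another percentile, other filters, a variance trend with robust estimation, the deposited table, a replicate block, each mouse left out, and 1 row per gene.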

Additional observations from a re-analysis of the deposited data

How the results depend on the processing

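Over 37 named probes, 457 values were recomputed: 412 kept their direction and side of the threshold. Signs turned for changes near 0 and for some larger ones, such as Malat1 A_55_P2021187 (0.31), H19 A_30_P01028827 (0.32) and H19 A_55_P1961125 (-0.27). With normexp correction Meg3 A_51_P455997 was at 0.15, Gas5 A_51_P130544 at -0.064, H19 A_55_P1961125 at 0.22 and NEAT1 A_30_P01029720 at -0.050. With quantile normalization Gas5 A_51_P130544 was at -0.027 and H19 A_30_P01021588 at -0.094, and with the percentile over probes well above background on all arrays Gas5 A_51_P130544 was at -0.0083. Leaving out each mouse in turn gave -0.017 to 0.17 for Meg3 A_55_P2033407, -0.068 to 0.17 for A_52_P196568 and -0.20 to 0.10 for A_51_P455997. It gave -0.20 to 0.81 for Malat1 A_55_P2021187, and -0.23 to 0.88, -0.17 to 0.82 and -0.21 to 0.75 for NEAT2 A_30_P01019221, A_30_P01020325 and A_30_P01031072. For Gas5 it gave -0.17 to 0.19 (A_51_P130544), -0.27 to 0.53 (A_55_P2178378) and -0.015 to 0.21 (A_66_P134809). For H19 it gave -1.40 to 1.22 (A_55_P1961127), -1.22 to 1.27 (A_30_P01021588), -1.13 to 1.04 (A_30_P01025068), -0.80 to 1.21 (A_30_P01028007), -0.42 to 1.05 (A_30_P01028827) and -1.16 to 0.63 (A_55_P1961125). For Mirg it gave -0.26 to 0.062 (A_55_P2336173) and -0.13 to 0.12 (A_66_P121059), and for NEAT1 -0.068 to 0.34 (A_30_P01029720) and -0.064 to 0.35 (A_30_P01023251).

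Member probes called numbered 0 in either direction under every alternative except a variance trend with robust estimation, which called 1 higher (Snhg1) and put 2 at unadjusted p under 0.05, as did normexp correction. With a mouse left out, the lone mouse of its group is assumed to vary like the other group. Leaving out each mouse gave 1 to 7 higher and 0 to 4 lower at that p, and 0 to 5 higher and 0 to 3 lower of at least 2-fold; the extremes are without SNL replicate 2 (7 and 5 higher) and without SNL replicate 1 (4 and 3 lower). All the lower probes without SNL replicate 1 are among the 5 H19 probes picked above by their order over the mice. Most of the higher probes without SNL replicate 2 are H19 probes of that set too. They read 1 RNA and their signs follow from that order, so these extremes are not separate results. The shares of all probes at that p are not given for these fits, so the member counts cannot be judged against them. Over all probes, 63 were called higher and 5 lower. These were 186 and 24 with normexp correction, 2095 and 169 with no filter, 514 and 140 with a variance trend, 34 higher with quantile normalization, 9 lower with probes well above background on all arrays, and 0 and 0 with any mouse left out. Of the snoRNA host genes, 10 were higher and 1 lower with a variance trend, and 1 lower with normexp correction; leaving out each mouse gave 2 to 4 higher and 0 to 1 lower. With a variance trend 1 motor neuron marker was higher. Of the genes next to the members, 5 were higher and 1 lower with normexp correction, 1 lower with no filter and 0 lower with probes well above background on all arrays; leaving out each mouse gave 2 to 5 higher. The cause of these shifts was not tested, except that fewer arrays leave fewer degrees of freedom.

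The labels number the mice 1 and 2 in each group and state no pairing. Deviations of same-numbered arrays correlated at -0.016 over probes. With 2 mice a group this is a single comparison and cannot decide whether the numbers pair the mice. With the replicate block 0 probes were called higher and 0 lower, 1 member was lower at unadjusted p under 0.05 and by at least 2-fold, 3 snoRNA host genes were higher, 1 gene next to a member was higher, and A_30_P01025558 had adjusted p = 0.192. A block for slide or scan was not run, with 1 slide and 1 scan. Arrays with fewer spots well above background, as in SNL, limit what dim probes such as A_55_P1961125 of H19 can show.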

Other observations

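Genes next to the members in the genome were counted as the 3 nearest on each side with a tested probe. Of 44 such genes that are not members, 2 were higher and 2 lower at unadjusted p under 0.05, against 6.35% and 5.18% of all genes. Of the 44, 0 passed, and the median change was 0.09. The 3 with the smallest p lie beside Miat, which has no probe by that name. Mn1, a transcriptional coregulator gene, read 0.26 and 0.32 in SNL mice, against -0.36 and -0.36 in sham mice, a change of 0.65 ± 0.10 (limma, adjusted p = 0.183). C130026L21Rik, whose probe did not clear background on the SNL arrays, was at least 1.27-fold lower (adjusted p = 0.185), and Cryba4, a crystallin gene, was at 0.35 (adjusted p = 0.342).

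Of 43 other named long noncoding RNAs, counted by current symbol, 31 were tested, 0 were higher and 1 lower at unadjusted p under 0.05, with a median change of -0.04. Over all genes 6.35% were higher and 5.18% lower at that p. Some of the 43 are in other lists too. The lower one, Crnde, read -4.22 and -4.52 in SNL mice, against -3.84 and -3.84 in sham mice (adjusted p = 0.338). Of 26 other imprinted genes tested 1 was higher and 2 lower at that p: Nnat, which encodes a small membrane protein of neurons, at 0.61, Mkrn3, a ubiquitin ligase gene, at -0.94, and Zdbf2 at -0.48 (adjusted p from 0.320 to 0.380). Of 17 p53 targets 6 were higher and 0 lower, led by Cdkn1a, named above among the glucocorticoid-induced genes, at 2.25 (adjusted p = 0.0888) and Pmaip1, a regulator of cell death, at 1.45 (adjusted p = 0.101).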
